A study of Atriplex prostrata and Atriplex rosea and Atriplex prostrata x Atriplex rosea with 87 samples.

Results

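The plastid-encoded loci are the rows of the count table whose identifier begins with ATCG, the code that Arabidopsis annotation gives to the chloroplast genome. There were 88 such rows among the 21971 loci used. A filter on low counts left 84 of them among 14779 loci tested. The 4 that were not tested were RPS12A, the cytochrome b6f locus ATCG00590, and the Ycf15 pair ATCG00870 and ATCG01270. In 7 pairs of rows the counts were equal in every library, as they are for loci of the repeated region of the chloroplast genome. Counting each pair once left 81 distinct measurements. Counts of loci called are of rows, so both members of a pair enter them. By the description column, the rows held the large subunit of Rubisco, 5 photosystem I subunits with 2 assembly factors, and 15 photosystem II subunits. They also held 6 cytochrome b6f, 6 ATP synthase and 12 NDH subunits, 26 ribosomal proteins, 4 RNA polymerase subunits and 11 others.

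Chloroplasts keep a small genome that encodes core subunits of the photosynthetic complexes, together with part of the ribosomes and the polymerase that express them, while the nucleus encodes the remaining subunits. As a young leaf expands, its proplastids become chloroplasts, and both a nucleus-encoded phage-type polymerase and the plastid-encoded polymerase transcribe the genome. The NDH complex carries cyclic electron flow around photosystem I, which yields ATP without NADPH, and in several C4 plants it is most abundant in bundle sheath chloroplasts.

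The libraries came from leaves of Atriplex prostrata, a C3 species, and Atriplex rosea, a C4 species, without any transgene or treatment. Leaves were taken at leaf plastochron index -1.3 (1 mm long), -0.7 (5 mm) and -0.35 (7.5 mm, with leaf 9 and leaf 10 as separate groups). At index 0.3 and 0.8 the bottom and the top of the blade were taken separately; these leaves were 15 and 18 mm long in A. prostrata and 11 and 13 mm in A. rosea. Growth chambers were held at 27 °C in the 17 h light period and at 22 °C in the dark, under 500 µmol photons per square metre and second. Leaves were cut 2 h into the light period. Leaves at index 1.5, the oldest labelled, and F1 hybrid plants were not analysed here. Each of the 16 groups held 3 libraries, 24 per species. The labels call them separate samples without naming separate plants, so the spread behind each p-value is that among libraries and may be technical.

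Library totals ran from 7647689 to 15360702 counts, of which only 2015 to 23659 fell on plastid loci, against 0.00781% to 0.0589% on mitochondrial loci. A locus drew between 67 counts over all libraries (each Ycf15 row) and 37422 (ATPA, the ATP synthase alpha subunit), with a median of 1750, and 11 loci had no count in at least 1 library. The labelled library kit selects RNA by its poly(A) tail, which plastid messages lack in stable form, so the counts are a small residue and not the plastid message level; how far capture moved with stage or species was not tested. Counts were assigned to Arabidopsis loci, and a difference in RNA level cannot be told apart from a difference in how well each species' sequence matched. In bulk tissue, fewer cells or plastids and less RNA per cell cannot be told apart either. Locus lengths were not used here, so levels are compared between libraries and never between loci.

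Several libraries stood apart. The A. prostrata index 0.3 bottom and top libraries numbered 1 differed by a chi-square of 1.14 per degree of freedom over all loci, where 1 is counting noise alone and the lowest of 1128 library pairs, although they carry different labels. Replicates 1 and 2 of the A. prostrata 1 mm leaves differed by 1.20. Replicate 3 of the A. prostrata 5 mm leaves had a plastid share of 0.0820%, against 0.0213% and 0.0295% in the others, and the highest mitochondrial share of all libraries. Replicate 3 of the A. prostrata index 0.3 bottoms had 28.9% of its plastid counts on PSBA and 3.53% on photosystem I. In A. rosea, the library numbered 1 had the highest photosystem I share and the lowest ATP synthase share of the plastid counts in 8 of 8 groups. What these numbers mark is not given in the labels.

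Plastid loci took 0.0720% of all counts, and in both species their mean share was higher at index 0.8 than in the 1 mm leaves. In A. prostrata the share was 0.0236% ± 0.0011 (SD, n = 3) at 1 mm, 0.0443% ± 0.0329 at 5 mm, 0.0286% ± 0.0021 in leaf 9 and 0.0265% ± 0.0049 in leaf 10 at 7.5 mm. It was 0.0503% ± 0.0215 in bottoms and 0.0836% ± 0.0271 in tops at index 0.3, then 0.0453% ± 0.0124 in bottoms and 0.106% ± 0.0188 in tops at index 0.8. The tops held more than the bottoms at index 0.8, where the lowest top (0.0862%) exceeded the highest bottom (0.0587%), while at index 0.3 the ranges overlapped. In A. rosea the share was 0.0322% ± 0.0070 at 1 mm, 0.0558% ± 0.0212 at 5 mm, 0.0525% ± 0.0154 in leaf 9 and 0.0409% ± 0.0078 in leaf 10. It was 0.149% ± 0.0546 in bottoms and 0.106% ± 0.0379 in tops at index 0.3, and 0.117% ± 0.0448 and 0.145% ± 0.0174 at index 0.8. In A. rosea the bottoms and tops overlapped at both indices. The 5 mm leaves overlapped the index 0.8 bottoms in both species, through replicate 3 in A. prostrata (0.0820%) and replicate 1 in A. rosea (0.0787%). The widest 95% Wilson interval, which covers counting error only, reached 4.37% of its value to either side, which was small beside most of these spreads. In the A. prostrata 1 mm leaves it was not, since replicate 1 had an interval of 0.0232% to 0.0252% beside the SD of 0.0011.

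**Figure D1:**
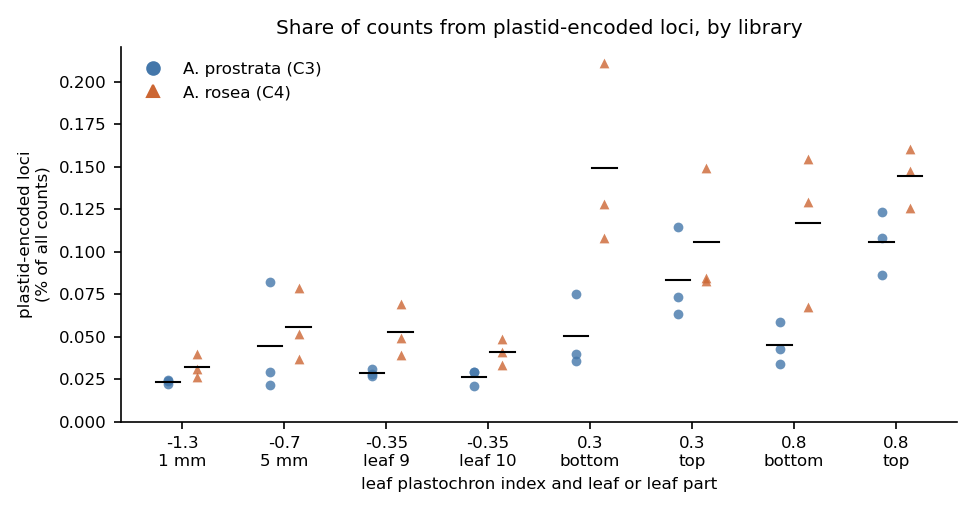
Plastid loci as a percentage of all counts (vertical axis) in each library, by leaf plastochron index and leaf part (horizontal axis), with circles for A. prostrata, triangles for A. rosea and bars at the mean of 3 libraries. The 1 mm libraries lie at or below 0.0398%, and the highest library is an index 0.3 bottom of A. rosea at 0.211%.

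The makeup of the plastid counts differed between the species. Summed over all libraries, ATP synthase subunits took 13.3% of the plastid counts in A. prostrata and 24.9% in A. rosea, and NDH subunits took 6.88% and 13.1%. Rubisco's large subunit took 11.9% and 6.87%, photosystem II 26.7% and 20.8%, the ribosome 15.0% and 10.6%, and the polymerase 5.77% and 3.20%. Photosystem I (9.85% and 10.8%) and cytochrome b6f (3.11% and 3.51%) were closer. The species did not overlap within 7 of the 8 stage and part groups for ATP synthase, with the index 0.3 bottoms as the exception, nor within 7 of 8 for NDH, with the 1 mm leaves as the exception. These shares are a description, since 1 complex taking more leaves less for the others.

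The shares also moved with stage. In A. prostrata the Rubisco large subunit went from 6.73% ± 0.33 (SD, n = 3) of plastid counts at 1 mm to 15.7% ± 1.9 in the index 0.8 tops, whereas in A. rosea it was 5.39% ± 0.89 and 6.16% ± 1.65. The share of NDH subunits went down in A. prostrata, from 9.10% ± 1.12 to 5.99% ± 1.15, and up in A. rosea, from 10.3% ± 0.8 to 15.0% ± 1.4. Ribosomal proteins had a smaller share in the index 0.8 tops of both species, 18.6% ± 0.9 against 11.2% ± 0.6 in A. prostrata and 15.5% ± 0.9 against 7.78% ± 1.21 in A. rosea. Neither the Rubisco ranges in A. prostrata nor the ribosomal ranges in either species overlapped between these stages.

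**Figure D2:**
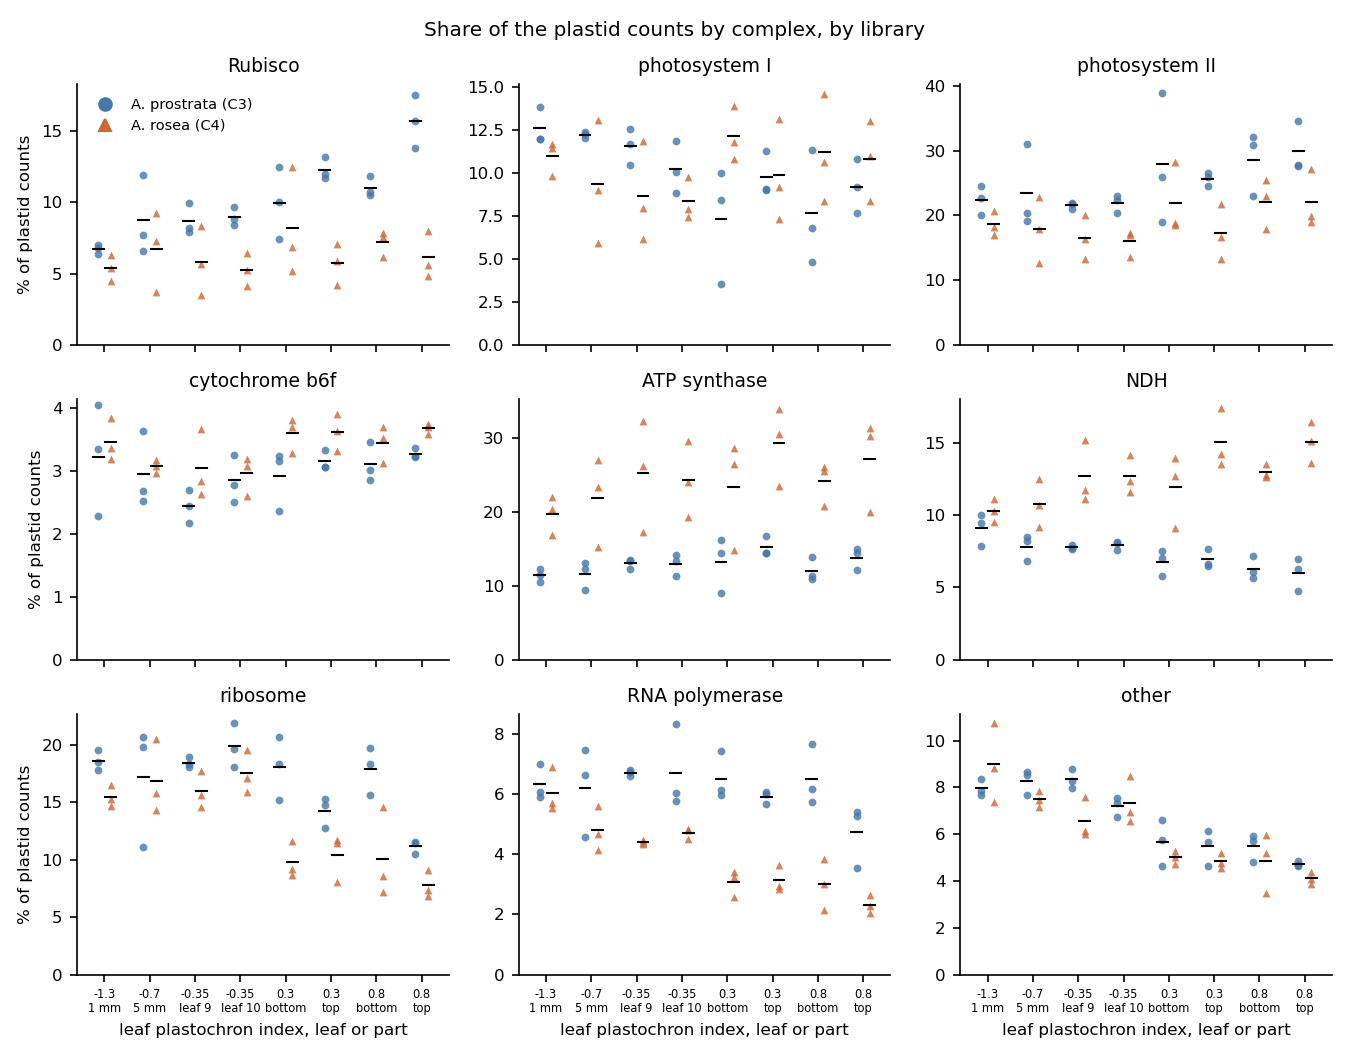
Percentage of each library's plastid counts (vertical axis, a separate scale per panel) taken by each complex, by leaf plastochron index and leaf part (horizontal axis), with circles for A. prostrata, triangles for A. rosea and bars at the mean of 3 libraries. ATP synthase and NDH means are higher in A. rosea and Rubisco means higher in A. prostrata in all 8 groups.

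Each locus was then tested across all 48 libraries with edgeR's quasi-likelihood test, and a locus was called where the Benjamini-Hochberg adjusted p over all tested loci was below 0.05 and the absolute log2 fold change at least 1. Averaged over the 8 stage and part groups, 31 of 84 plastid loci were higher and 0 lower in A. rosea, where 9.61% of all tested loci were higher and 10.3% lower, 19.9% together. Both rows of the equal RPL2, RPL23, NDHB and YCF2 pairs are among the 31. DESeq2 called 32 higher and 0 lower, and at an unadjusted p below 0.05 edgeR had 59 higher and 3 lower. The median log2 fold change was 0.72 over the plastid loci and -0.02 over all loci. Without the 8 A. rosea libraries numbered 1, 18 were called higher and 1, YCF6, lower. With library totals in place of TMM factors 21 were called higher, and the share of all calls that were higher went from 48.4% to 37.2%. In the 1 mm leaves A. rosea had 15 loci higher and 1 lower (8.49% and 7.9% of all loci), and in the index 0.8 tops 22 were higher and 1 lower (11.7% and 13.7%). Without A. prostrata replicate 1 or 2 the 1 mm count was 9 or 8, and without A. rosea replicate 2 it was 7. With library totals 18 were called higher and 2 lower in the tops, where the share of all calls that were higher went from 46.2% to 34.7%. The 10 loci higher at both made up 66.7% of the first list and 45.5% of the second.

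The comparisons by age below share their libraries with those between species. Nearly all plastid loci were higher in older leaves, measured as the mean of both index 0.8 parts against the 1 mm leaves. In A. prostrata 72 of 84 were higher and 0 lower (15.2% and 8.28% of all loci), with a median log2 fold change of 1.85. In A. rosea 76 were higher and 0 lower (15% and 10.3%), with a median of 2.65. The comparisons had 67 of these loci in common, which is 93.1% of the A. prostrata and 88.2% of the A. rosea list. With 72 and 76 of 84 called, a large overlap was bound to occur, so these percentages do not measure agreement between the species. No plastid locus was called lower in either species, NDHF in A. prostrata (-0.03) being the one with a value below 0. At an unadjusted p below 0.05 edgeR had 76 and 82 higher and 0 lower, and DESeq2 called 74 and 80 higher and 0 lower. With library totals in place of TMM factors, 48 and 62 were called higher, and the share of all calls that were higher went from 64.7% to 23.0% in A. prostrata and from 59.3% to 17.0% in A. rosea. That scaling moved the median of all loci by -0.58 and -0.75. Scaled to the plastid counts alone, which removes a change that all plastid loci have in common, 5 were higher and 10 lower in A. prostrata, and 2 and 15 in A. rosea.

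Plastid loci were also higher at index 0.3 than in the 7.5 mm leaves. Over this step, with both leaves of index -0.35 against both parts of index 0.3, 69 loci were higher and 0 lower in A. prostrata (10.3% and 5.28% of all loci), with a median of 1.42. In A. rosea 66 were higher and 0 lower (5.23% and 2.65%), with a median of 1.63. In both species 57 loci were higher, an overlap that was bound to be large with so many called in each. Leaf 9 and leaf 10 libraries of one column number differed by a chi-square of 1.80 to 3.10 per degree of freedom in A. prostrata, less than any pair within either leaf (3.52 to 7.70). The number is that in the count column names, since the leaf 9 labels number their samples otherwise. In A. rosea the libraries numbered 2 differed by 2.84, also less than any pair within either leaf (4.58 to 40.2). Libraries of leaf 9 and leaf 10 may therefore not be independent. With leaf 9 left out, 65 and 72 loci were called higher. DESeq2 called 72 and 71 higher and 0 lower, and at an unadjusted p below 0.05 edgeR had 81 and 82 higher and 0 lower. With library totals the share of all calls that were higher went from 66.1% to 34.4% in A. prostrata and from 66.4% to 33.8% in A. rosea, and 47 and 57 plastid loci were called.

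**Figure D3:**
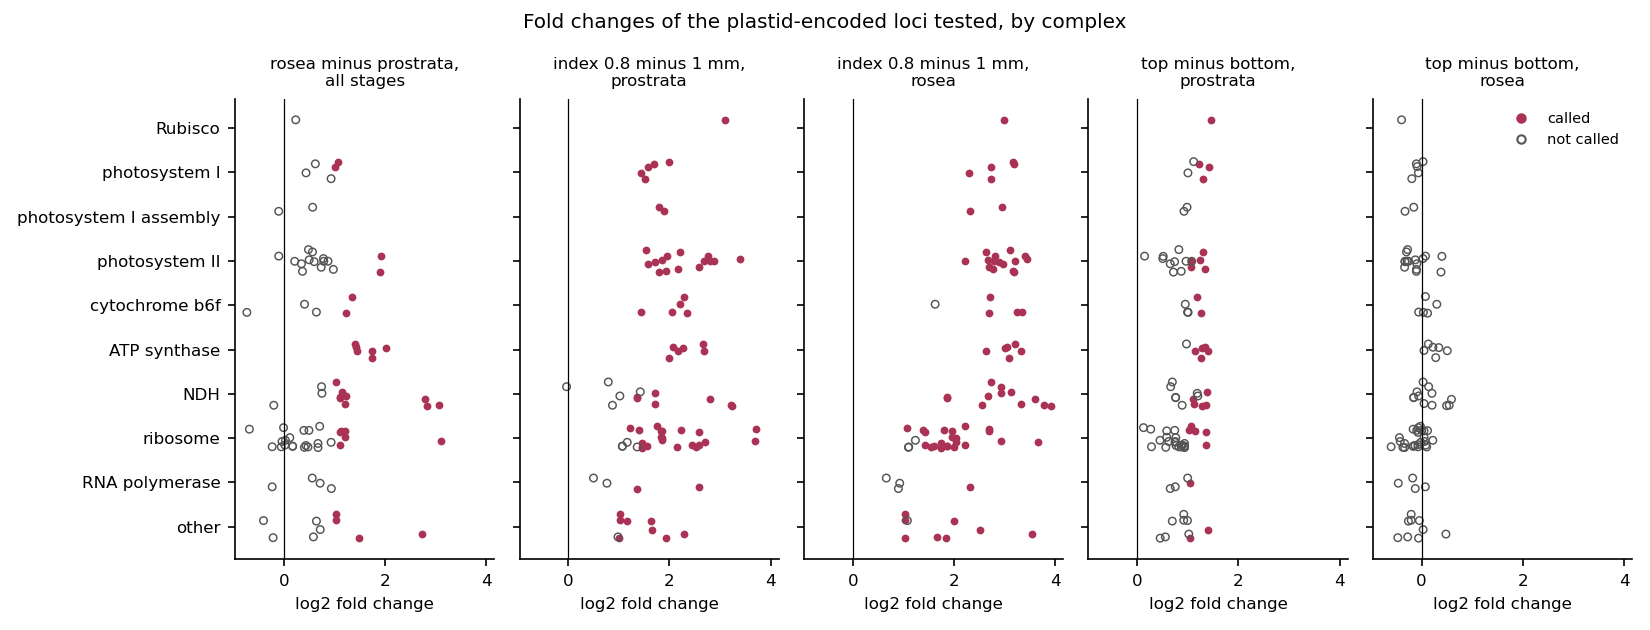
Log2 fold change (horizontal axis) of each tested plastid locus, by complex (vertical axis), in 5 comparisons; filled points passed the test and the fold threshold, open points did not. All 6 ATP synthase loci are filled between species, every locus but NDHF lies above 0 with age in A. prostrata, and no point is filled between leaf parts of A. rosea.

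Rubisco fixes CO2, and RBCL encodes its large subunit. In A. prostrata RBCL stood at 12.6, 11.9 and 11.8 CPM (counts scaled to a fixed library size with TMM factors) in the 1 mm leaves. At index 0.8 it stood at 71.8, 40.5 and 45.3 CPM in the bottoms and 228.2, 265.6 and 126.2 CPM in the tops. No old library overlapped a young one, and the tops lay above the bottoms. In A. rosea the 1 mm leaves had 9.00, 13.3 and 20.3 CPM, the index 0.8 bottoms 119.7, 44.3 and 163.8 CPM, and the tops 156.3, 109.5 and 92.9 CPM. Here too old and young leaves were separate, but bottoms and tops overlapped. RBCL rose with age by a log2 fold change of 3.10 ± 0.60 (SE; edgeR adjusted p = 2.90e-05) in A. prostrata and 3.00 ± 0.59 (3.63e-05) in A. rosea. The difference between these rises was -0.10, with a 95% interval of -1.62 to 1.41, which leaves room for large differences in either direction. Between species the log2 fold change was 0.24 over all groups (interval -0.19 to 0.66, adjusted p = 0.296) and -0.79 in the index 0.8 tops (interval -1.94 to 0.36, adjusted p = 0.244).

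Rubisco's small subunit is encoded in the nucleus, and 2 of its genes were tested. RBCS1A rose with age by 4.79 ± 0.32 in A. prostrata and 2.73 ± 0.28 in A. rosea on the log2 scale, and the difference of -2.06 ± 0.35 passed the test (adjusted p = 2.97e-05). In the index 0.8 tops RBCS1A was lower in A. rosea by a log2 fold change of -2.12 ± 0.30 (adjusted p = 1.51e-07). Small subunit genes are near-identical copies in many plants, so reads can be shared between them and single values are uncertain.

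Photosystem II splits water, and its 15 plastid subunits were all higher with age in both species, with medians of 2.17 in A. prostrata and 2.88 in A. rosea. PSBA, the D1 protein that is replaced continually in the light, stood between 14.5 and 20.8 CPM in the 1 mm leaves of A. prostrata and between 60.6 and 350.4 (median 105.1) at index 0.8. In A. rosea its range was 14.3 to 27.6 at 1 mm and 50.1 to 282.4 (median 171.0) at index 0.8. The ages did not overlap in either species, and the log2 fold changes were 2.81 ± 0.62 (adjusted p = 1.95e-04) and 3.21 ± 0.63 (3.87e-05). Between species PSBA differed by 0.21 (interval -0.24 to 0.66, adjusted p = 0.375).

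Only 2 of the 15 photosystem II loci were called between species, PSBK and PSBI, neighbouring loci for small subunits of the core. That is 13.3%, near the 9.61% of all tested loci that were higher in A. rosea. Over all 24 libraries a species, PSBK ranged from 0.625 to 6.71 CPM (median 1.88) in A. prostrata and from 0.734 to 26.0 (median 8.13) in A. rosea. At index 0.8 the A. prostrata libraries (1.66 to 4.80) lay below all A. rosea libraries (8.84 to 26.0). The log2 fold changes were 1.89 ± 0.14 for PSBK (edgeR adjusted p = 5.46e-15) and 1.91 ± 0.17 for PSBI (2.33e-13). These loci were picked out after their values were seen, and the median of the 15 was 0.60. The strand of counting is not given in the sources used here, so loci that overlap a neighbour are uncertain.

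Photosystem I receives electrons and reduces ferredoxin, and its reaction centre is made of PSAA and PSAB. PSAB ranged from 5.29 to 63.1 CPM (median 13.5) in A. prostrata and from 8.87 to 142.1 (median 36.3) in A. rosea. The ranges overlapped over all stages, while the medians at index 0.8 were 39.0 and 107.4. PSAB was called at a log2 fold change of 1.00 ± 0.20 (edgeR adjusted p = 2.56e-05) and PSAJ at 1.07 ± 0.25 (1.64e-04), whereas PSAA at 0.93 ± 0.20 (6.90e-05) lay just under the fold threshold. Without the A. rosea libraries numbered 1, PSAB stood at 0.64 and PSAJ at 0.99, and neither was called. With age, 5 of 5 loci were higher in each species, with medians of 1.57 and 2.73, and PSAA rose by 1.52 ± 0.53 in A. prostrata, where the ages overlapped, and by 2.73 ± 0.54 in A. rosea, where they did not. The assembly factors YCF3 and YCF4 were higher with age in both species and not called between species.

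The cytochrome b6f complex passes electrons between the photosystems. PETB, its cytochrome b6, ranged from 1.18 to 21.2 CPM (median 3.87) in A. prostrata and from 2.41 to 42.8 (median 10.3) in A. rosea. The ranges overlapped over all stages, and at 1 mm the A. rosea libraries (3.21 to 5.86) lay above those of A. prostrata (1.18 to 2.86). PETB was higher in A. rosea by 1.35 ± 0.18 (edgeR adjusted p = 1.66e-08) and PETD, subunit IV, by 1.22 ± 0.16 (8.99e-09), 2 of 5 tested. YCF6, a small subunit with 126 counts in A. rosea and 195 in A. prostrata over all libraries, had -0.73 ± 0.32 (adjusted p = 0.0338), below the fold threshold. With age all 5 were higher in A. prostrata and 4 in A. rosea, PETG being the exception.

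ATP synthase makes ATP from the proton gradient, and all 6 of its plastid loci were higher in A. rosea over the stages, with a median of 1.60. ATPA, the catalytic part's alpha subunit, ranged from 8.68 to 96.0 CPM (median 17.1) in A. prostrata and from 17.0 to 348.0 (median 93.1) in A. rosea. At 1 mm A. prostrata had 10.1, 9.47 and 8.68 CPM and A. rosea 17.0, 28.9 and 35.2 CPM. In the index 0.8 tops the values were 96.0, 85.1 and 62.2 CPM against 198.3, 348.0 and 273.3 CPM. The species did not overlap at either stage, and the library numbered 1 was the lowest of the A. rosea values at both. The log2 fold change was 2.03 ± 0.13 over all groups (edgeR adjusted p = 3.98e-17), 1.53 ± 0.38 at 1 mm (1.39e-03) and 1.76 ± 0.35 in the tops (6.81e-05). PB, the name the table gives the beta subunit, was higher by 1.41 ± 0.14 (9.56e-12), and ATPE, the epsilon subunit, by 1.45 ± 0.13 (1.59e-12). Their reading frames adjoin in the chloroplast genome, so reads at the border could be assigned to either.

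ATPA rose with age by 2.26 ± 0.36 in A. prostrata (edgeR adjusted p = 1.17e-06) and 3.01 ± 0.35 in A. rosea (2.07e-09), and all 6 loci rose in both species. Of the 4 nuclear ATP synthase genes tested, 3 were higher in A. rosea over the stages, with a median of 1.29. ATPC1, the gamma subunit, was higher by 1.27 ± 0.11 (8.28e-14).

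Among the NDH loci, the species difference varied widely. Of 12, 9 were higher in A. rosea over the stages and 0 lower, with a median of 1.14 and a range from -0.20 to 3.07. At the top stood NDHJ, NDHC and PSBG, 3 loci with consecutive identifiers. PSBG is the table's symbol for ATCG00430, which its summary describes as NDH subunit K, and it is counted with NDH here. PSBG ranged from 0.423 to 10.0 CPM (median 1.59) in A. prostrata and from 2.66 to 101.2 (median 20.4) in A. rosea. At 1 mm the values were 0.572, 0.423 and 0.615 CPM in A. prostrata and 2.66, 4.29 and 5.25 CPM in A. rosea. In the index 0.8 tops they were 9.60, 9.26 and 9.13 CPM against 47.3, 101.2 and 69.6 CPM. Every A. rosea library lay above every A. prostrata library of its stage in these groups. The log2 fold change over the stages was 3.07 ± 0.17 for PSBG (edgeR adjusted p = 4.96e-19), 2.84 ± 0.18 for NDHJ (1.84e-17) and 2.79 ± 0.14 for NDHC (5.36e-21). These 3 were also the NDH loci called higher at 1 mm, NDHJ by 2.37 ± 0.69 (5.39e-03). NDHC and PSBG overlap in the chloroplast genome, so reads may be split between them.

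The remaining NDH loci showed smaller differences. NDHH was higher in A. rosea by 1.02 ± 0.20 (edgeR adjusted p = 1.17e-05), and NDHG, NDHI, NDHA and the NDHB pair by 1.21, 1.16, 1.22 and 1.11. NDHF had 0.75 ± 0.18 (3.09e-04), under the fold threshold, and NDHD had -0.20 ± 0.16 (0.238). At 1 mm NDHD was lower in A. rosea, with 1.38, 1.15 and 2.05 CPM against 3.68, 4.14 and 3.92 CPM in A. prostrata, groups that did not overlap. Its log2 fold change there was -1.34 ± 0.49 (0.0248), and no other plastid locus was called lower at that stage. The call was lost without A. prostrata replicate 2, A. rosea replicate 1 or A. rosea replicate 2. NDHF at 1 mm had -1.21 ± 0.55 (0.0737).

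**Figure D4:**
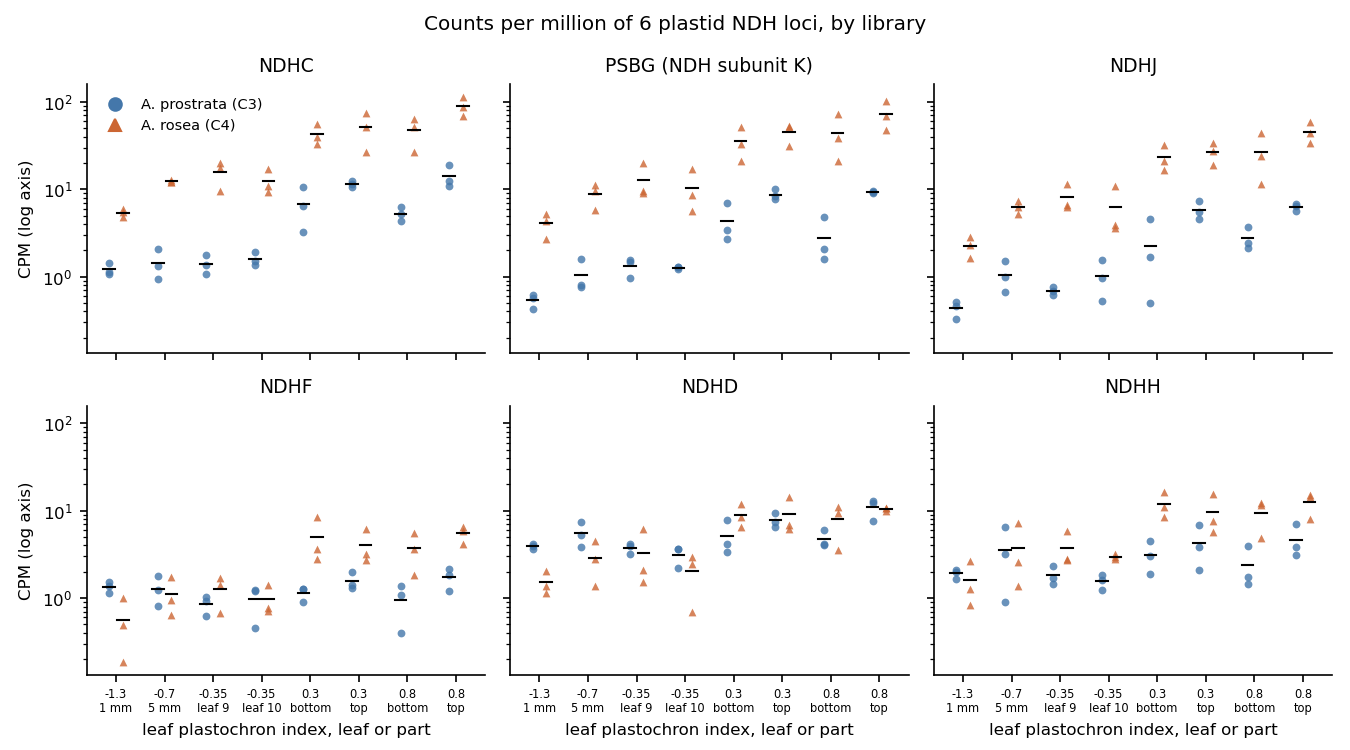
TMM-scaled CPM on a log axis of 6 plastid NDH loci in each library, by leaf plastochron index and leaf part, with circles for A. prostrata, triangles for A. rosea and bars at the mean of 3 libraries. NDHC, PSBG and NDHJ are separate between species at 1 mm, while NDHD and NDHF are lower in A. rosea at 1 mm.

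NDHF, NDHD and NDHH rose more with age in A. rosea than in A. prostrata, and they were the only plastid loci whose age change was called different between species. This was 3 of 84 higher (3.57%) and 0 lower, where 4.51% of all loci were higher and 6.38% lower. The share called was thus no larger among plastid loci than among all loci. DESeq2 called 6 higher and 0 lower, and at an unadjusted p below 0.05 edgeR had 7 higher and 0 lower. With library totals 2 were called, and the share of all calls that were higher went from 41.4% to 28.4%. Without A. rosea 1 mm replicate 2 the count was 1, and without A. rosea index 0.8 bottom replicate 2 it was 6. Without the A. rosea libraries numbered 1 it was 3, with RPS15 (2.89, adjusted p = 0.0253) in place of NDHH (1.63, 0.122). NDHF stood at 1.14, 1.52 and 1.38 CPM in the 1 mm leaves of A. prostrata and between 0.396 and 2.13 (median 1.29) at index 0.8. In A. rosea it stood at 0.184, 0.495 and 0.989 CPM and between 1.85 and 6.43 (median 4.86). The ages overlapped in A. prostrata and were separate in A. rosea. The log2 fold change with age was -0.03 ± 0.43 (adjusted p = 0.952) and 2.92 ± 0.45 (5.56e-07), a difference of 2.96 ± 0.64 (5.92e-04, interval 1.67 to 4.24). NDHF counts were low, with 21 over the A. rosea 1 mm libraries and 50 over those of A. prostrata.

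NDHD went from between 3.68 and 4.14 CPM to between 4.09 and 13.0 (median 6.77) in A. prostrata, and from between 1.15 and 2.05 to between 3.54 and 11.0 (median 10.3) in A. rosea. Its difference in age change was 1.68 ± 0.56 (edgeR adjusted p = 0.0241), and it was not called without either of 2 A. rosea 1 mm libraries, replicate 1 (0.0616) or replicate 2 (0.0749). NDHH went from between 1.63 and 2.11 CPM to between 1.45 and 7.06 (median 3.48), and in A. rosea from between 0.825 and 2.66 to between 4.82 and 15.2 (median 11.9). Its difference was 1.95 ± 0.72 (0.0436), which was not called in 13 of the fits that left out 1 library, with adjusted p up to 0.123. Both lay in a run of loci with neighbouring identifiers, from NDHD through PSAC, NDHE, NDHG, NDHI, NDHA and NDHH to RPS15. Along this run the differences in age change were all above 1, from 1.23 for NDHE to 2.49 for RPS15 (adjusted p = 0.0525), while the median over the plastid loci was 0.47. The run was picked out after its values were seen, and its loci are known in other plants to be transcribed together, so they are not independent measurements.

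The remaining NDH subunits are encoded in the nucleus. All 10 such genes tested were higher in A. rosea over the stages (median 2.75), all 10 at 1 mm (median 2.97) and 9 in the index 0.8 tops (median 1.86). NDF1 was higher by 2.63 ± 0.10 (edgeR adjusted p = 2.35e-24) and NDF4 by 3.06 ± 0.13 (7.46e-23). With age all 10 rose in both species, by medians of 5.13 in A. prostrata and 3.64 in A. rosea. The difference in age change was lower in A. rosea for 4 of 10 and higher for 0 (median -1.17), while among plastid NDH loci it was higher for 3 of 12 and lower for 0 (median 1.42). No test compared the 2 lists, and both species' values enter each difference.

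**Figure D5:**
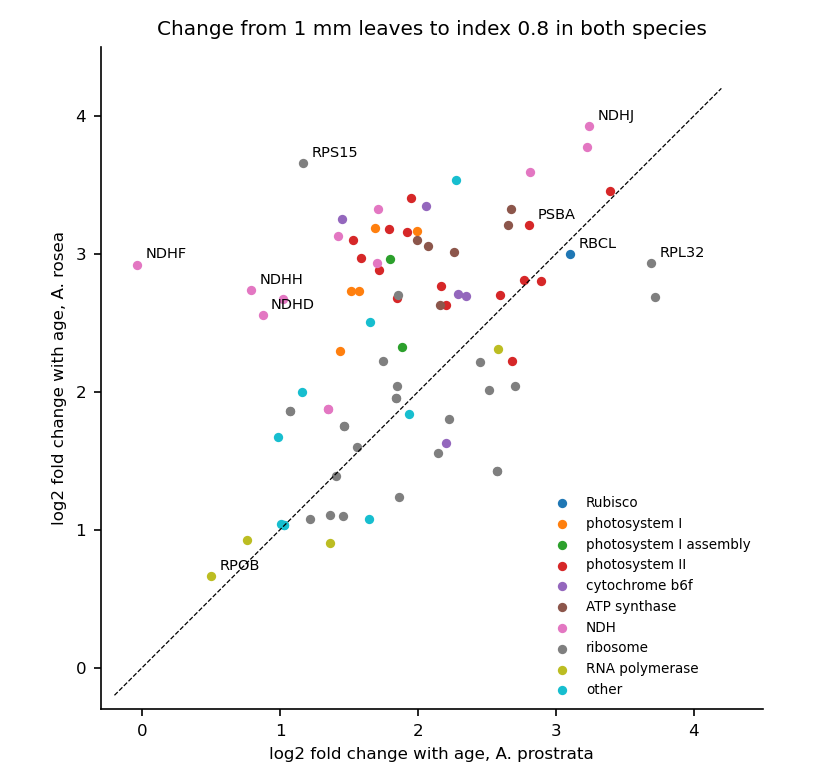
Log2 fold change with age (index 0.8 against 1 mm) of each tested plastid locus in A. prostrata (horizontal axis) and A. rosea (vertical axis), coloured by complex, with a dashed line where both are equal. NDHF lies at -0.03 and 2.92, far above the line, and RBCL lies near it at 3.10 and 3.00.

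Plastid ribosomes translate these messages, and 6 of 25 ribosomal protein loci tested were higher in A. rosea, with a median of 0.44. RPL32, a protein of the large subunit, had the highest log2 fold change between species of all plastid loci. In A. prostrata it ranged from 0.0817 to 4.30 CPM (median 0.712), and in A. rosea from 1.29 to 17.1 (median 9.21). At 1 mm A. prostrata had 0.0817, 0.169 and 0.231 CPM and A. rosea 1.29, 1.57 and 1.83 CPM, without overlap. The difference was 3.11 ± 0.15 over the stages (edgeR adjusted p = 3.74e-21) and 3.19 ± 0.63 at 1 mm (7.56e-05), where only 6 counts lay behind the A. prostrata value. The others were RPS14 (1.13) and the RPL2 and RPL23 pairs (1.21 and 1.10), each pair being 1 measurement. RPL16 had a log2 fold change between species of -0.00 ± 0.07 (interval -0.14 to 0.13, adjusted p = 0.949), with medians of 18.2 and 24.6 CPM.

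With age 21 of 25 ribosomal loci rose in A. prostrata and 22 in A. rosea, with medians of 1.84 and 1.86. RPL16 rose by 1.21 ± 0.17 and 1.08 ± 0.17, RPL32 by 3.69 ± 0.56 and 2.93 in the same order. RPS16, which rose by 3.72 ± 0.79 in A. prostrata (edgeR adjusted p = 1.10e-04), and RPS15, which rose by 3.66 ± 0.59 in A. rosea (1.48e-06), had the highest values of the group but rested on 6 and 7 counts in the young leaves. Of 27 nuclear genes for plastid ribosomal proteins, 27 rose with age in each species, by medians of 2.53 and 1.93, and 0 were called between species over the stages. In the index 0.8 tops 3 of the 27 were called lower in A. rosea (11.1%, beside 13.7% of all loci). Without the fold threshold 19 were lower there at an edgeR adjusted p below 0.05. Their median in the tops was -0.67, with 0 of 27 above 0. The difference in age change was called lower for 2 (7.41%, beside 6.38% of all loci) and higher for 0.

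The plastid-encoded polymerase has its alpha, beta and beta-prime type subunits in the chloroplast genome, and none of its 4 loci was called between species over the stages. RPOC2 had 0.94, RPOC1 0.72, RPOB 0.56 and RPOA -0.23. At 1 mm RPOC2 was higher in A. rosea (3.22 to 4.34 CPM against 1.10 to 1.54, without overlap), by 1.50 ± 0.46 (edgeR adjusted p = 8.37e-03). With age RPOA, which lies in a run of ribosomal protein loci, rose by 2.58 ± 0.26 (5.14e-11) in A. prostrata and 2.31 ± 0.26 (7.36e-10) in A. rosea. It went from between 4.56 and 5.61 CPM to between 19.6 and 58.6, and from between 2.85 and 6.77 to between 14.1 and 26.5, with no overlap of ages in either species. RPOB went from between 2.07 and 3.02 CPM to between 1.45 and 7.34 in A. prostrata and from between 2.80 and 4.03 to between 3.78 and 6.91 in A. rosea. The ages overlapped in both, and the log2 fold changes were 0.50 ± 0.41 (0.295) and 0.66 ± 0.38 (0.126).

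Among nuclear factors that act on plastid transcription, 0 of 5 sigma factors, which direct the plastid-encoded polymerase to promoters, and 0 of 2 phage-type polymerases were called between species over the stages. SIG2 rose with age by 1.55 ± 0.14 and 1.31 ± 0.14 on the log2 scale. SCA3, the plastid phage-type polymerase, had 0.95 ± 0.21 in A. prostrata (edgeR adjusted p = 2.13e-04), under the fold threshold, and rose by 1.27 ± 0.21 in A. rosea (3.03e-06).

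Of the other loci, 4 of 9 tested were higher in A. rosea over the stages. YCF5, which acts in attaching haem to c-type cytochromes, ranged from 0.254 to 3.76 CPM (median 0.794) in A. prostrata and from 0.734 to 31.3 (median 7.77) in A. rosea. At 1 mm all A. rosea libraries were already the higher, and the difference over the stages was 2.73 ± 0.18 (edgeR adjusted p = 5.55e-17). ACCD, a subunit of the acetyl-CoA carboxylase that starts fatty acid synthesis, ranged from 0.592 to 4.18 CPM in A. prostrata and from 2.41 to 8.95 in A. rosea, a difference of 1.48 ± 0.14 (4.79e-12). The YCF2 pair, 1 measurement, had 1.03. MATK, a factor in intron splicing, was called lower in A. rosea in the index 0.8 tops, as no other plastid locus was, at 12.0, 10.7 and 5.82 CPM against 27.2, 22.4 and 14.9 CPM. These groups were separate, with a log2 fold change of -1.18 ± 0.48 (0.0362). The call was lost without A. prostrata replicate 1 or 2 or A. rosea replicate 2 or 3, and over all stages MATK had -0.21 (interval -0.58 to 0.16).

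With age ACCD rose by 1.01 and 1.04 on the log2 scale in A. prostrata and A. rosea, and YCF5 rose by 2.28 and 3.54. YCF9, which is photosystem II subunit Z and belongs with that group, rose by 3.39 ± 0.50 (edgeR adjusted p = 3.28e-07) and 3.45.

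Arranged by identifier, which follows the order along the chloroplast genome, the loci called between species lay mostly in runs. PSBK and PSBI adjoin each other, as do ATPA, ATPF, ATPH and ATPI, then NDHJ, PSBG and NDHC, then ATPE and PB, and PETB and PETD. RPL32 and YCF5 (3.11 and 2.73) lie between NDHF and NDHD (0.75 and -0.20), so the values alternate there. This arrangement was noticed after the values were seen, and members of a run can share a transcript and are not independent.

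The top and bottom of the blade were compared over index 0.3 and 0.8 together, 6 libraries against 6. The fit took these libraries as independent. Same-numbered parts of one age had a median correlation of 0.257 in A. prostrata and -0.039 in A. rosea. In A. prostrata 29 of 84 loci were higher in the top and 0 in the bottom, where 0.433% and 0.785% of all loci were, with a median of 0.96. DESeq2 called 33 and 0, and at an unadjusted p below 0.05 edgeR had 63 and 0. Left without the near-identical index 0.3 libraries, 50 loci were called higher in the top. Fitted on the compared groups alone, 1 was called. Leaving out 1 library moved the count past 1.5 times for 8 of 12. It was 49, 18 and 14 without index 0.3 bottom replicates 1, 2 and 3, and 12 without index 0.3 top replicate 3. It was 45, 15 and 17 without index 0.8 bottom replicates 1, 2 and 3, and 19 without index 0.8 top replicate 1. With library totals 22 were called, and the share of all calls that were higher went from 35.6% to 18.6%.

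The 29 loci came from most complexes. They were 5 of 6 ATP synthase, 5 of 12 NDH, 5 of 15 photosystem II, 3 of 5 photosystem I, 2 of 5 cytochrome b6f, 5 of 25 ribosomal and 1 of 4 polymerase loci, with RBCL and 2 others. RBCL ranged from 29.8 to 107.1 CPM (median 42.9) in the bottoms and from 78.4 to 265.6 (median 141.4) in the tops. The ranges overlapped through the near-identical bottom library numbered 1, at 107.1 CPM, since the other bottoms reached 71.8 CPM. The log2 fold change was 1.46 ± 0.41 (edgeR adjusted p = 0.0154). ATPI, ATP synthase subunit a, ranged from 3.57 to 7.55 CPM in the bottoms and 10.6 to 20.5 in the tops, which was without overlap, and had 1.40 ± 0.27 (9.68e-04). PSAB had 1.42 ± 0.41 (0.0164), YCF10, an envelope membrane protein, 1.39 ± 0.40 (0.0177), and NDHI 1.38 ± 0.45 (0.0346).

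In A. rosea no plastid locus was called between top and bottom, where 0.149% of all loci were higher in the top and 0.433% lower. edgeR's smallest adjusted p was 0.0933, with 3 loci higher and 0 lower at an unadjusted p below 0.05, and DESeq2 called 0. With library totals the share of all calls that were higher went from 25.6% to 11.9%. The median was -0.07, and RBCL ranged from 44.3 to 277.5 CPM (median 100.1) in the bottoms and from 43.3 to 156.3 (median 101.2) in the tops, which overlapped, the highest values being bottoms. Its log2 fold change was -0.40 ± 0.40 (0.670, interval -1.21 to 0.42).

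The difference between the species in this comparison was fitted after the values were seen. All 84 loci had a lower top-to-bottom difference in A. rosea, with a median of -1.03, but none passed the test (0.0677% of all loci were higher and 0.0474% lower). The smallest adjusted p was 0.176, 46 loci were lower and 0 higher at an unadjusted p below 0.05, and DESeq2 called 0. Without the near-identical index 0.3 bottom library numbered 1 of A. prostrata 10 loci were called lower, and without both near-identical libraries 3 were. RBCL had -1.86 ± 0.58 (edgeR adjusted p = 0.211). Of the nuclear partners, 1 of 10 NDH genes was called higher in the top in A. prostrata, where 0.433% of all loci were. Of the photosystem, ATP synthase, cytochrome b6f, ribosome and small subunit genes, 0 were called. Without the fold threshold, at an edgeR adjusted p below 0.05, 10 of 10 NDH, 2 of 2 small subunit and 3 of 4 ATP synthase genes were higher. So were 1 of 2 cytochrome b6f, 1 of 8 photosystem I, 1 of 7 photosystem II and 4 of 27 ribosome genes, and 1082 of all 14779 loci.

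Nuclear partners of the other complexes were compared over the stages, where 9.61% of all loci tested were higher and 10.3% lower in A. rosea. In photosystem I 2 of 8 nuclear genes were higher in A. rosea (median 0.89, beside 0.93 for the plastid loci), among them PSAF, a subunit that docks plastocyanin, at 1.00 ± 0.09. In photosystem II 1 of 7 was (median 0.52, beside 0.60), with PSBO2 of the oxygen-evolving complex at 0.61. In cytochrome b6f 1 of 2 was, and PETC, the Rieske protein, had 0.70. All nuclear genes of these 3 complexes that were tested rose with age in both species. Of 12 polymerase-associated proteins, 2 were higher in A. rosea and 0 lower, and of 6 factors of plastid RNA turnover 1 was higher and 1 lower. Of the mitochondrial loci tested, 6 of 54 were higher and 15 lower between species (11.1% and 27.8%), the first near the share of all loci. With age 3 were higher and 2 lower in each species. Of all loci, 15.2% were higher and 8.28% lower with age in A. prostrata, and 15% and 10.3% in A. rosea.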

How the data were processed

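RNA-seq libraries of whole leaves or leaf parts were used as the deposited table of read counts per Arabidopsis locus. The submitters' processing notes name CASAVA, TAIR10 and DESeq2; an aligner or counter is not given in the sources. Of 60 count columns, 48 matched the labels, 12 matched no labelled sample, and 72 per-sample columns in all were not used. Leaf 9 columns were matched to their group only. In 5 rows values were shifted, and they were left out. Counts were filtered with filterByExpr (minimum 10, total 15), scaled by TMM and fitted with edgeR 4.0.16 quasi-likelihood tests over all 16 groups without covariates, with Benjamini-Hochberg adjustment over all tested loci. SE is the log2 fold change over the root of F. Tested on simulated data of the 1 mm comparison (14591 genes), the fit recovered 94 of 100 genes changed by 1.5 (log2) and 100 of 100 changed by 3. The changed genes were drawn from all loci with a mean above 1 CPM. Recovery of plastid loci, whose median SE in that comparison was 0.62, was not tested. Alternatives were DESeq2 1.42.0, other scalings and filters, a replicate block and leaving out libraries. Loci were named where they had the 3 highest or 2 lowest mean CPM of their complex, or were called in a main comparison (the 5 largest changes per direction where over 10 were called); PSBK, PSBI, YCF3, YCF4, ACCD, NDHA, NDHB, NDHG, RPL2 and RPL23 were picked after their values were seen. The members and lists were chosen with earlier results of these data known.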

Additional observations from a re-analysis of the deposited data

Results flagged for a closer look

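The change from 1 mm leaves to index 0.8 differed between the species for 3 plastid NDH loci, by edgeR's test of the difference itself. These were 3.57% of the plastid loci tested, below the 4.51% of all loci called higher. The difference, A. rosea minus A. prostrata, was 2.96 on the log2 scale for NDHF, 1.95 for NDHH and 1.68 for NDHD. NDHF kept its call in every alternative run, while NDHH and NDHD did not.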

How the results depend on the processing

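Scaled to plastid counts, with the cause not tested beyond that construction, plastid loci called higher and lower were 8 and 7 between species over the stages, 4 and 2 at 1 mm and 8 and 11 in the index 0.8 tops. They were 5 and 10 with age in A. prostrata, 2 and 15 in A. rosea and 1 for the difference in age change. They were 0 from 7.5 mm to index 0.3 in A. prostrata, 0 and 2 in A. rosea, and 0 and 2 between parts of A. prostrata. Under this scaling the age change fell below 0 in A. prostrata for PSAA (-0.61), NDHH (-1.34), NDHD (-1.23), RPL16 (-0.84), RPOB (-1.63), ACCD (-1.06), PSAB (-0.57) and RPOC2 (-0.75). Of these, PSAA, PSAB and RPOC2 had edgeR adjusted p of 0.106 to 0.143, and the others lay below 0.05. In A. rosea the age change fell below 0 for PSAA (-0.017), NDHD (-0.13), RPL16 (-1.50), RPOA (-0.27), RPOB (-2.01), PETB (-0.033), ACCD (-1.58), PSAB (-0.024) and RPOC2 (-1.80). There PSAA, NDHD, RPOA, PETB and PSAB had edgeR adjusted p of 0.5 to 0.97, so no reversal was shown for them. The others lay below 0.05.

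Without a fold threshold 59 were higher and 3 lower over the stages and 4 lower in the tops. With library totals 2 were lower in the tops. Without the A. rosea libraries numbered 1, 18 were higher and 1 lower over the stages and 3 lower in the tops. On the compared groups alone, 2 were lower at 1 mm, 3 lower in the tops, 5 had a higher difference in age change and 1 was higher in the A. prostrata tops. DESeq2 called 6 for the difference in age change. Without the near-identical libraries 50 were higher in the A. prostrata tops, and 3 were lower for the difference between parts.

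Over all groups and all loci, same-numbered samples correlated between -0.486 and 0.476 in A. prostrata and -0.573 and 0.461 in A. rosea. The medians were 0.015 and 0.043, and the main fit did not pair them. Some did go together: parts of one age in A. prostrata had a median of 0.257, with 4 of 6 over 0.1. Leaf 9 and leaf 10 libraries of one column number lay close in A. prostrata, as did those numbered 2 in A. rosea. In photosystem I share of the plastid counts, A. rosea number 1 was highest in 8 of 8 groups. With the replicate block, 9 were higher and 0 lower at 1 mm, 0 lower in the tops (NDHD and MATK lost their calls), and 5 had a higher difference in age change.

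Leaving out 1 library in turn gave 26 to 36 higher and 0 to 1 lower over the stages, 7 to 14 and 0 to 2 at 1 mm, and 16 to 22 and 0 to 3 in the tops. It gave 61 to 75 and 74 to 81 higher with age, 1 to 6 for the difference in age change, 49 to 80 and 55 to 73 from 7.5 mm to index 0.3, and 12 to 49 for parts of A. prostrata. It gave 0 to 10 lower for the difference between parts, with 10 without A. prostrata index 0.3 bottom replicate 1. Low counts limit loci such as NDHF, RPL32 and RPS16, and causes of these shifts were not tested.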
